A study of Mus musculus with 5 samples.

Results

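Cholesterol and fatty acids are built from the same small precursor, acetyl-CoA, by enzymes whose genes share a group of transcription factors, the sterol regulatory element binding proteins (SREBPs). SREBP precursors sit in the membrane of the endoplasmic reticulum, held by the escort protein Scap and the anchor proteins Insig1 and Insig2. When membrane sterol is low they move to the Golgi, are cut, and enter the nucleus. In skin these lipids serve membranes of dividing keratinocytes, the barrier of the cornified layer and the sebum of the sebaceous gland.

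Described here are 36 genes of this system, taken by gene symbol from a list and all present among the 56691 gene IDs of the count table. They comprise 8 genes of the mevalonate steps and 12 of the sterol steps, together called the cholesterol arm. A further 9 belong to fatty acid synthesis, elongation and desaturation and 5 to SREBP control. The last are the sterol carrier gene Stard4 and the oxysterol enzyme gene Ch25h. All 36 passed the filter on low counts.

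Expression was measured by RNA sequencing of back skin cells from mice 28 days old. Keratinocytes sorted for GFP, labelled Lrig1 positive in both cell description and genotype, gave 3 libraries (GFP 1, 2 and 3). Cells labelled basal keratinocytes of wild-type genotype, taken as the whole population with no GFP sort, gave 2 (bulk 1 and 2). Strain, sex, the GFP construct and its driver, the sort gates and any pooling of animals are not stated in the labels. Title numbers join bulk 1 with GFP 1 (4143) and bulk 2 with GFP 2 (4145), while GFP 3 has a number of its own (4146). Nothing in the labels says that libraries of a group are separate animals, so p-values measure no more than the spread between these libraries.

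Libraries held 56829330 to 105887450 counts, and Lrig1 itself stood at 163 and 155 CPM (each library's counts scaled to a common total with edgeR's TMM factors) in bulk and at 210, 226 and 213 CPM in GFP libraries. Other cell types were more abundant in bulk RNA. The summed CPM of 10 suprabasal genes was 17620 to 22530 in bulk and 8952 to 12410 in GFP libraries. For 10 hair-forming cell genes it was 1056 to 1843 against 32.6 to 35.3, and for 10 immune genes 247 to 254 against 18.0 to 35.1. For 10 stromal genes it was 218.6 and 171.5 in bulk and 170.1, 36.8 and 10.2 in GFP 1, 2 and 3, so GFP 1 came close to bulk 2. The summed CPM of 11 basal layer genes was 23060 and 26230 in bulk and 35620 to 44130 in GFP libraries. By edgeR's test described below, 10 of 10 hair, 10 of 10 immune and 5 of 10 suprabasal genes fell. So did 7 of 8 melanocyte and 5 of 5 red cell genes and 3 of 9 tested stromal genes. Of all tested genes 5.14 percent were called lower and 0.145 percent higher. Of 11 basal genes 0 were called, 10 had a log2 change above 0 and 1 below. For 8 of the 11, all GFP libraries lay above both bulk libraries, against 14.6 percent of all tested genes. Of 11 sebaceous gland genes 10 were tested and 1, Dgat2, fell. Their sum was 2229 and 2471 CPM in bulk against 2342 to 3621 CPM, most of it Krt79. Krt79 had 2000 and 2314 CPM in bulk and 3503, 2980 and 2274 CPM in GFP libraries, so the sum mainly follows it. Of the 10 tested sebaceous genes 7 had a log2 change below 0 and 3, Krt79 among them, above 0. GFP 3 was the only library rich in Xist, an RNA of female cells, so the groups differed in the sex of their libraries. The part of any of these in the results below was not tested, and in such mixed samples fewer cells of a type cannot be told apart from less RNA per cell.

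The promoters of 4 members are shown first, because the genes of this system are grouped by the factors said to bind there. Sequences are the 250 bases before the gene start from RefSeq (GRCm38.p6, an earlier build than the GRCm39 of the counts), 5′ to 3′ on the gene's strand. Capitals mark the sterol regulatory element TCACNCCAC, where SREBPs bind, or the NF-Y box CCAAT, both searched on both strands (the box reads ATTGG on the other strand). The marked motifs do not overlap. Fads2 and Ch25h were the called members with the largest fall and rise. Hmgcs1 and Lss were added after their values were seen.

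Hmgcs1, chr13:119690101-119690350, plus strand: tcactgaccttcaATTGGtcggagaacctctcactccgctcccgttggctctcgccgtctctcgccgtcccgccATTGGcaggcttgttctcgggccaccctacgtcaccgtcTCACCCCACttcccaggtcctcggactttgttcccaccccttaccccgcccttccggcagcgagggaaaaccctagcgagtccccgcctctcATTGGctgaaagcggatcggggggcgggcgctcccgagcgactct
Lss, chr10:76531355-76531604, plus strand: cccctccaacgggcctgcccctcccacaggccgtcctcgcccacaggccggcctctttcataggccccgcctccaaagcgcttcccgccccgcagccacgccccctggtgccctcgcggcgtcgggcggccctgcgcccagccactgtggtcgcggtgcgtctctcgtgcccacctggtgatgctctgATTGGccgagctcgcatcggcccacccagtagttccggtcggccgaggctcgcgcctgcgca
Fads2, chr19:10101504-10101753, minus strand: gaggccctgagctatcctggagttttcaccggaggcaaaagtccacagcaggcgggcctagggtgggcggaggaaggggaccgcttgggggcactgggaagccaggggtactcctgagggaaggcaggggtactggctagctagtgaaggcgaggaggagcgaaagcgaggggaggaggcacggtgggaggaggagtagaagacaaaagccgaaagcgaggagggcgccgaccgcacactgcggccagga
Ch25h, chr19:34475149-34475398, minus strand: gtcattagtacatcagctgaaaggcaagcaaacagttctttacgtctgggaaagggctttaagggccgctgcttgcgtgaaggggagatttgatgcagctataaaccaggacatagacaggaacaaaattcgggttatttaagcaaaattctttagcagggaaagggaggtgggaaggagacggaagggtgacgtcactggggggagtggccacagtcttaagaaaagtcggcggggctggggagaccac

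Of the 36 members 30 had a RefSeq window of 300 bases, from 250 before to 50 after the start. Only Hmgcs1 held the sterol regulatory element as spelled here, 137 bases before its start, and 1.44 percent of all 27025 genes with a window did. The NF-Y box was in windows of 24 of the 30 members (80.0 percent) and of 41.1 percent of all genes. By arm it was found for 16 of 17 cholesterol genes, 4 of 7 fatty acid genes and 4 of 5 control genes. It was not in the Ch25h window. These are matches of letters and not measured binding.

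GFP-sorted cells carried less RNA of the fatty acid desaturase genes Scd2, Fads1 and Fads2 and of the sterol enzyme gene Lss, and more RNA of Ch25h. edgeR's quasi-likelihood test called these 5 members (Benjamini-Hochberg adjusted p under 0.05 over 18583 genes), 4 lower and 1 higher. Among all genes tested 5.14 percent were called lower and 0.145 percent higher. The 5 genes of SREBP control were not called, with log2 changes between -0.10 and 0.37. The median log2 change was -0.41 over the 20 genes of the cholesterol arm and -0.75 over the 9 fatty acid genes, against 0.05 over all tested genes.

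With the title number as a block, which compares each GFP library with the bulk library of its number, 21 members were called lower and 2 higher. For comparison, the same fit called 19.7 percent of all genes lower and 16.4 percent higher. It rests on GFP 1 and 2 alone, since GFP 3 has no bulk partner. It takes libraries of a shared number as coming from the same animal although the labels give them different genotypes. The fit leaves 1 degree of freedom for the spread, and its SEs hardly followed a gene's own pairs. Log2 changes by pair were -1.05 and -0.116 for Me1 and -0.49 and -0.57 for Mvk, with SEs of 0.1435 and 0.1429. Small p-values from the block thus do not measure how well the pairs of that gene agreed.

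Removing each library's trend of level on transcript length and GC content gave results that depended on how the trend was drawn. A plain loess trend, run first, left 3 members lower (Scd2, Fads1 and Fads2) and 1 higher (Ch25h), with 4.67 percent of all genes lower and 2.46 percent higher. It also moved the median log2 change of all genes from 0.05 to 0.29. After those calls had been seen, a robust trend centred on 0 in each library was added, with a median of 0.06. It left 6 members lower (Fdps, Lss, Tm7sf2, Scd2, Fads1 and Fads2) and none higher, with 5.44 percent and 0.37 percent of all genes. Together with the block, the plain trend gave 12 members lower and 8 higher, with 11.4 percent and 36.1 percent of all genes. The centred trend with the block gave 20 lower and 3 higher, with 14.9 percent and 16.0 percent of all genes.

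Leaving out bulk 1 or bulk 2 left 1 bulk library in the fit, and fewer members as well as fewer of all genes were called. Median log2 changes without bulk 1 were -0.46 in the cholesterol arm and -0.98 in the fatty acid arm, against 0.05 over all genes. Without bulk 2 they were -0.28 and -0.84, against 0.06. In CPM, 20 members had all GFP libraries below both bulk libraries and 2 had all above, against 18.5 and 14.6 percent of all tested genes.

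**Figure D1:**
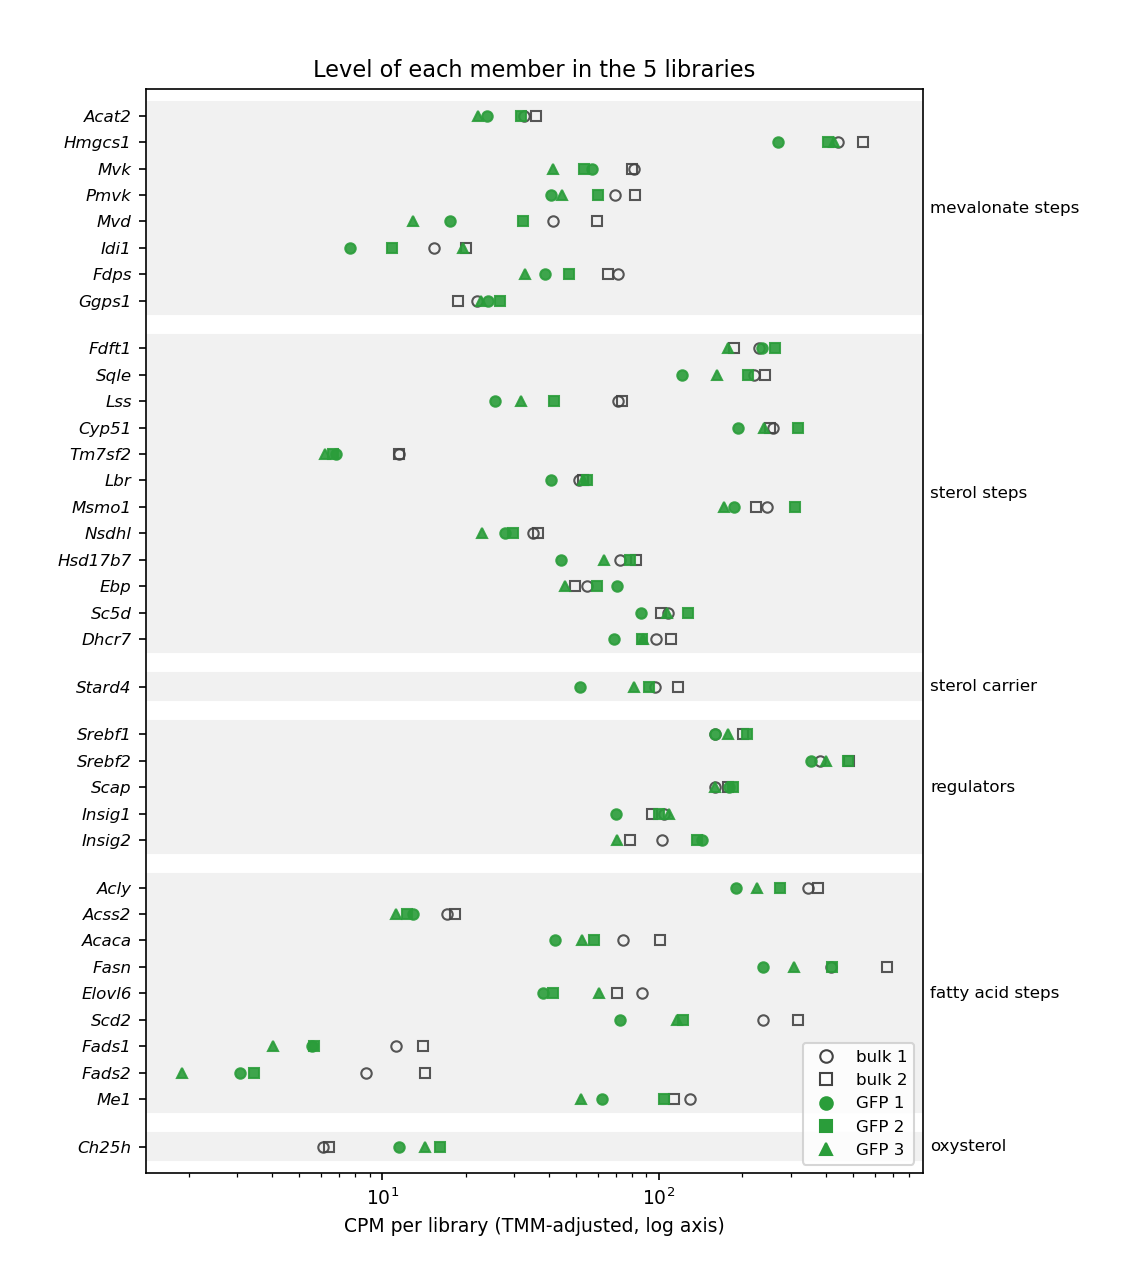
Level of each of the 36 members in each library as TMM-adjusted CPM on a log axis, open symbols for bulk and filled green symbols for GFP-sorted libraries, with the symbol shape giving the replicate number. The fatty acid genes lie lower in the GFP libraries, though for Fasn GFP 2 reaches bulk 1. For Srebf1, Srebf2 and Scap the groups overlap.

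Levels per transcript length differed widely among members. Per kilobase of the longest annotated transcript, Hmgcs1 was the most abundant in both groups, with 142 CPM per kb in bulk and 106 CPM per kb in GFP-sorted cells. Srebf2 was next among GFP-sorted cells at 81.2 CPM per kb. At the low end stood Fads2, at 3.66 CPM per kb in bulk and 0.889 CPM per kb after sorting, and Fads1, at 3.65 and 1.47 CPM per kb. Ch25h was at 4.53 CPM per kb in bulk and 10.1 CPM per kb in GFP-sorted cells.

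In the fatty acid arm the desaturases led. Scd2, which puts the first double bond into saturated fatty acids, had 238 and 319 CPM in bulk and 72.5, 122 and 116 CPM in GFP 1, 2 and 3. Every GFP library thus lay below both bulk libraries. Scd2 fell by 1.43 ± 0.27 on the log2 scale (SE, n = 2 and 3; edgeR adjusted p = 0.0209), to 0.372 of its bulk level. Without bulk 2 the change was -1.21 and not called (edgeR adjusted p = 0.157).

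Fads2 encodes the delta-6 desaturase, which opens the path from essential to long polyunsaturated fatty acids. It had 8.73 and 14.3 CPM in bulk and 3.08, 3.44 and 1.89 CPM in GFP libraries, which did not overlap with bulk. The raw counts behind these values were 522 and 1596 against 243, 228 and 176. The log2 change of Fads2 was -2.04 ± 0.34, a fall that passed (edgeR adjusted p = 0.0120) and was not called without bulk 2 (-1.65, edgeR adjusted p = 0.117). Fads1, the delta-5 desaturase gene of the same path, had 11.2 and 14.1 CPM in bulk and 5.56, 5.66 and 4.05 CPM in GFP libraries. Fads1 fell by 1.31 ± 0.25 (edgeR adjusted p = 0.0220), though not without bulk 1 or bulk 2 (0.0730 and 0.220). All 3 desaturase genes fell also with the block.

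The genes that supply and chain carbon units shifted less. Fasn, the fatty acid synthase gene, had 416 and 667 CPM in bulk and 237, 420 and 307 CPM in GFP libraries, so that GFP 2 reached the level of bulk 1. Its log2 change was -0.75 ± 0.31 (edgeR adjusted p = 0.286). Acly, whose enzyme makes cytosolic acetyl-CoA from citrate, had 345 and 374 CPM in bulk and 190, 274 and 226 CPM after sorting (-0.64 ± 0.22, edgeR adjusted p = 0.189). Groups did not overlap for Acly, yet the change did not pass.

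Acaca, encoding acetyl-CoA carboxylase, the committed step, had 74.4 and 101 CPM in bulk and 42.1, 58.1 and 52.8 CPM in GFP libraries (edgeR adjusted p = 0.102). Elovl6, an elongase of saturated chains, had 87.0 and 70.4 CPM in bulk and 38.0, 41.2 and 60.7 CPM in GFP libraries (edgeR adjusted p = 0.160). Without GFP 3 Elovl6 fell by 0.996 (edgeR adjusted p = 0.0222).

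Me1, a source of NADPH, was at 129 and 113 CPM against 62.3, 105 and 52.2 CPM (edgeR adjusted p = 0.275). Acss2, which activates acetate, was at 17.2 and 18.4 CPM against 12.9, 12.3 and 11.2 CPM (edgeR adjusted p = 0.205). In all, 8 of the 9 fatty acid genes had non-overlapping groups, each with GFP below bulk, against 18.5 percent of all tested genes.

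With the block all 9 fatty acid genes were called lower, 7 of them with the centred trend added and 5 with the plain trend. Of all genes these fits, in this order, called 19.7, 14.9 and 11.4 percent lower. The exceptions with the centred trend were Fasn and Acaca, whose log2 changes moved from -0.74 to -0.24 and from -0.81 to -0.30 (edgeR adjusted p = 0.189 and 0.0644). These are the longest transcripts of the list, at 10050 and 9513 bases. The median transcript length was 4426 bases in the fatty acid arm and 3055 bases in the cholesterol arm. Spearman's rho of library ratios with transcript length ran from -0.361 (GFP 1 over bulk 2) to 0.0842 (GFP 3 over bulk 1) across genes, which are not independent replicates.

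In the mevalonate steps, which make isoprenoid units, no gene was called in the edgeR fit of the groups alone with TMM scaling. Mvk, Mvd or Fdps were called lower in some other fits without the block. Hmgcs1, the entry enzyme, had 442 and 544 CPM in bulk and 268, 408 and 427 CPM in GFP libraries (-0.42 ± 0.26, edgeR adjusted p = 0.506). GFP 2 and GFP 3 came close to bulk 1 without reaching it. Mvd, the decarboxylase that yields isopentenyl diphosphate, had 41.3 and 59.5 CPM in bulk and 17.5, 32.3 and 12.9 CPM after sorting. Its log2 change of -1.27 ± 0.37 was the most negative of the cholesterol arm and did not pass (edgeR adjusted p = 0.117). Mvd fell without GFP 2 (-1.73, edgeR adjusted p = 0.0153).

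Fdps, which joins isoprenoid units to farnesyl diphosphate, had 70.9 and 65.4 CPM in bulk and 38.6, 47.2 and 32.8 CPM in GFP libraries (edgeR adjusted p = 0.0775). The kinase gene Mvk had 80.8 and 80.1 CPM in bulk and 57.4, 53.8 and 41.3 CPM in GFP libraries (edgeR adjusted p = 0.128). The next kinase gene, Pmvk, had 69.4 and 82.1 CPM against 40.8, 60.0 and 44.6 CPM (edgeR adjusted p = 0.185). For these 3 genes every GFP library lay below bulk.

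Idi1, the isomerase gene, had 15.4 and 20.1 CPM in bulk and 7.68, 10.8 and 19.6 CPM in GFP libraries, so that GFP 3 alone was at the bulk level. Its log2 change was -0.48 ± 0.38 without the block and -0.94 with it (edgeR adjusted p = 0.599 and 1.21e-07), the block taking nothing from GFP 3. Acat2, which condenses acetyl-CoA, had a log2 change of -0.40 (edgeR adjusted p = 0.430). Ggps1 leads away from sterols, to the geranylgeranyl lipid used to anchor proteins. Ggps1 was the one mevalonate gene with all GFP libraries above bulk, at 21.9 and 18.8 CPM against 24.0, 26.6 and 22.8 CPM, and it was not called (0.27 ± 0.19, edgeR adjusted p = 0.570). With the block 6 of the 8 genes were called lower. Block and centred trend together gave 7 lower, Acat2 added, and Ggps1 higher (0.44, edgeR adjusted p = 0.0190). Block and plain trend gave 5 lower and Ggps1 higher. Of all genes these fits, in this order, called 19.7, 14.9 and 11.4 percent lower and 16.4, 16 and 36.1 percent higher.

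The sterol steps were less uniform. Lss, the cyclase that folds squalene epoxide into lanosterol, had 70.8 and 73.4 CPM in bulk and 25.7, 41.7 and 31.7 CPM in GFP libraries. The groups were well apart, and Lss fell by 1.13 ± 0.23 on the log2 scale (edgeR adjusted p = 0.0287), to 0.458 of its bulk level. It was not called without bulk 1, bulk 2 or GFP 1 (edgeR adjusted p = 0.130, 0.157 and 0.0625), nor with the plain trend removed (-0.67, 0.0813).

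Tm7sf2, a sterol C14 reductase, had 11.5 CPM in both bulk libraries and 6.80, 6.62 and 6.23 CPM in GFP libraries (-0.81 ± 0.21, edgeR adjusted p = 0.0723). Lbr, a nuclear membrane protein with the same reductase activity, had 51.4 and 53.0 CPM in bulk and 40.8, 54.8 and 53.1 CPM in GFP libraries (-0.07 ± 0.20, edgeR adjusted p = 0.891). The groups thus separated for Tm7sf2 and overlapped for Lbr. That the genes changed differently was not tested.

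Sqle, the squalene epoxidase gene and a rate-limiting step, had 220 and 241 CPM in bulk and 121, 209 and 162 CPM in GFP libraries (edgeR adjusted p = 0.410). Fdft1, which makes squalene, had 229 and 186 CPM against 236, 263 and 178 CPM (edgeR adjusted p = 0.848). GFP libraries lay below bulk for Sqle and on both sides of it for Fdft1.

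Cyp51, the lanosterol demethylase gene, had 257 and 252 CPM in bulk and 192, 316 and 239 CPM in GFP libraries. Msmo1, the C4 methyl oxidase gene, had 245 and 224 CPM in bulk and 186, 309 and 171 CPM in GFP libraries. For both genes GFP 2 was the highest of the 5 libraries, and the log2 changes were -0.03 and -0.08 (edgeR adjusted p = 0.965 and 0.920). Sc5d, the lathosterol oxidase gene, was alike, with GFP 2 highest at 127 CPM and a change of 0.03.

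Dhcr7, the last reductase of one route to cholesterol, had 97.3 and 110 CPM in bulk and 68.5, 86.7 and 87.4 CPM in GFP libraries (edgeR adjusted p = 0.430). Hsd17b7 had 72.1 and 82.6 CPM in bulk and 44.2, 78.7 and 63.4 CPM in GFP libraries, so that GFP 2 lay between the bulk libraries. Nsdhl and Hsd17b7, which act in turn on the C4 position, had log2 changes of -0.42 and -0.32 (edgeR adjusted p = 0.350 and 0.608). Ebp, the sterol isomerase gene, had a change of 0.17 (edgeR adjusted p = 0.768). The range of changes over the 12 sterol genes was -1.13 to 0.17, with a median of -0.20, against a median of -0.56 for the mevalonate genes.

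With the block 5 sterol genes were called lower, namely Sqle, Lss, Tm7sf2, Hsd17b7 and Dhcr7. Block and centred trend gave 5 again, Nsdhl in place of Hsd17b7. Block and plain trend gave 2 lower, Lss and Tm7sf2, and 2 higher, Fdft1 and Ebp. Of all genes these fits, in this order, called 19.7, 14.9 and 11.4 percent lower and 16.4, 16 and 36.1 percent higher. Stard4, which carries cholesterol between membranes, had 96.9 and 117 CPM in bulk and 51.7, 92.2 and 81.1 CPM in GFP libraries. It was called lower with the block (-0.62, edgeR adjusted p = 9.1e-05) and with block and centred trend (-0.45, 0.0158). It was not called without the block (-0.51, edgeR adjusted p = 0.406) or with block and plain trend (-0.30, 0.0761).

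**Figure D2:**
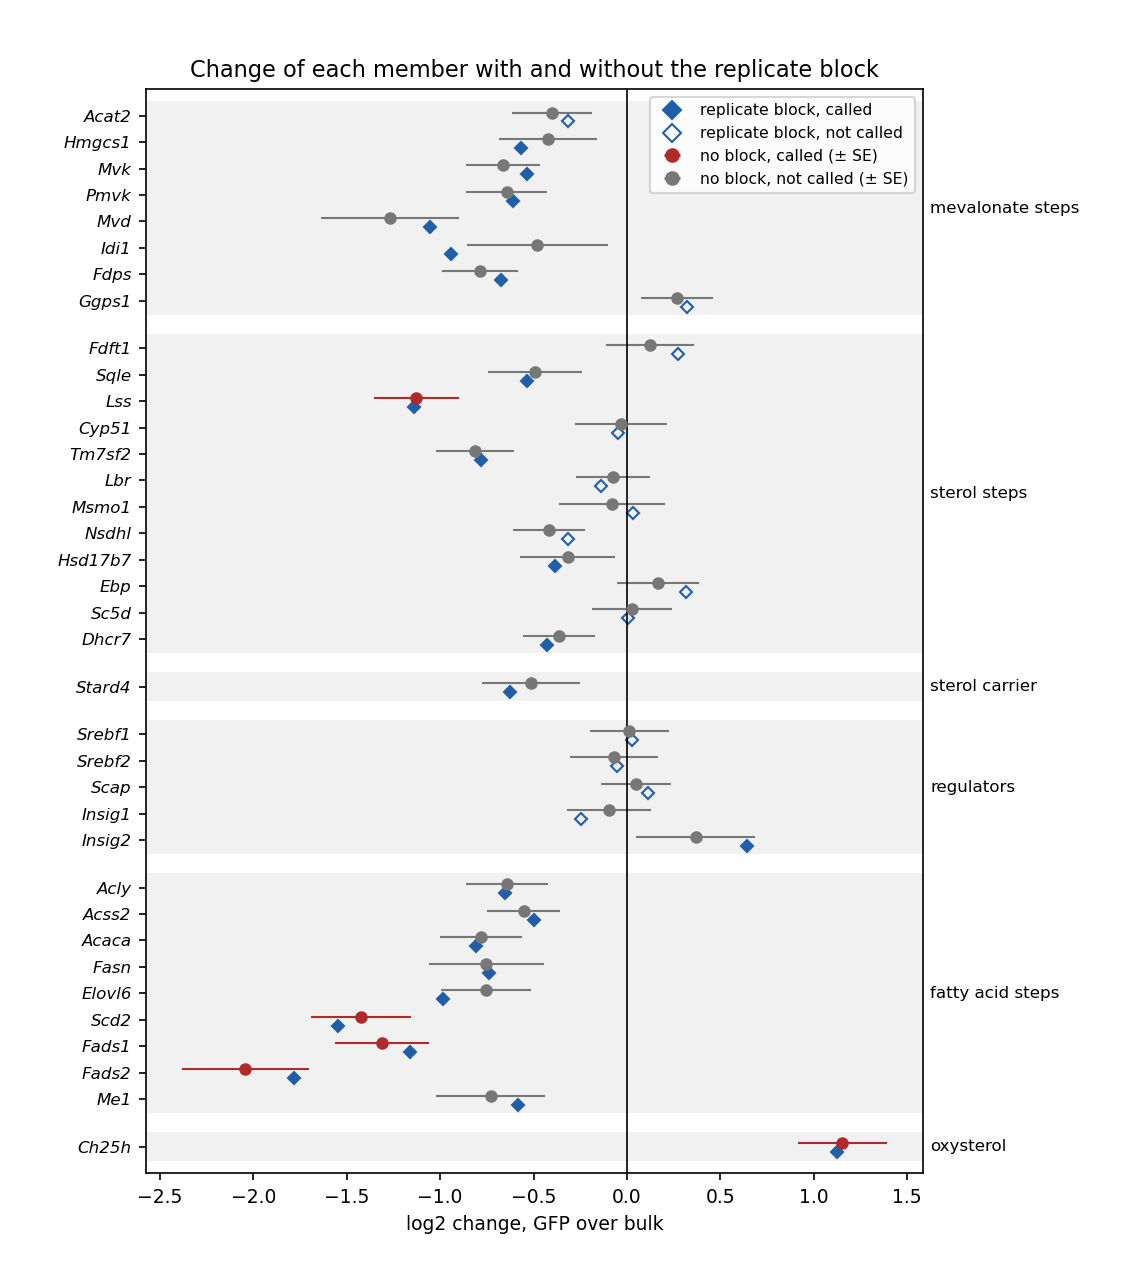
Log2 change of each member, GFP over bulk: circles with SE bars from the fit with no block (red where called, grey where not) and diamonds from the fit with the replicate block (filled where called). All 9 fatty acid genes lie left of 0, Ch25h lies right at 1.15, and Srebf1, Srebf2 and Scap lie next to 0.

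**Figure D3:**
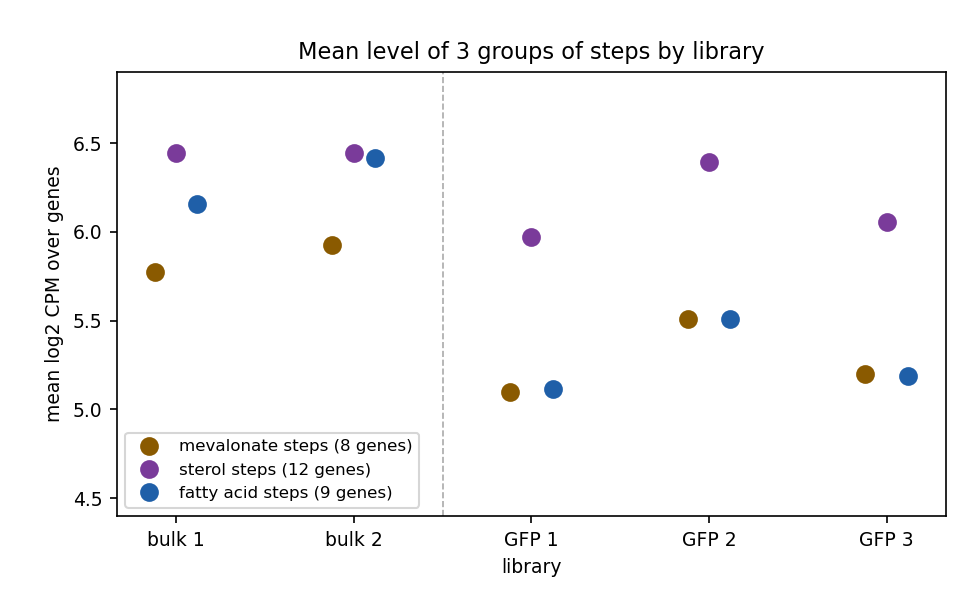
Mean log2 CPM over the 8 mevalonate, 12 sterol and 9 fatty acid genes in each library, the dashed line parting bulk from GFP. The fatty acid points stand above the mevalonate points in both bulk libraries and level with them in the GFP libraries.

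The 2 arms were set against each other within each library. The mean log2 CPM of the fatty acid genes minus that of the cholesterol genes was -0.02 and 0.18 in bulk 1 and 2 and -0.51, -0.53 and -0.52 in GFP 1, 2 and 3. The bulk values differed more from each other than the GFP values did. Summed over genes, the fatty acid arm was at 1327 and 1691 CPM in bulk and 664, 1041 and 833 CPM in GFP libraries, with no overlap. The cholesterol arm summed to 2226 and 2328 CPM in bulk and 1583, 2253 and 1789 CPM in GFP libraries, where GFP 2 lay between the bulk libraries.

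Measured instead by the median log2 change, the gap between the arms was smaller once the trends were taken out. With no trend removed the medians were -0.75 for fatty acid and -0.41 for cholesterol genes. Medians were -0.65 for fatty acid and -0.44 for cholesterol genes with the centred trend removed, and -0.49 and -0.23 with the plain trend, where that of all genes was 0.29. Both medians stayed below 0 in every fit run. These summaries describe the listed genes and were not tested, since members were chosen with earlier results known.

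Transcripts of the SREBP system itself differed little in level. Srebf2, the factor most tied to sterol genes, had 381 and 485 CPM in bulk and 354, 482 and 401 CPM in GFP libraries (-0.07 ± 0.23, edgeR adjusted p = 0.917). Srebf1, more tied to fatty acid genes, had 160 and 201 CPM in bulk and 160, 208 and 178 CPM in GFP libraries (0.01 ± 0.21, edgeR adjusted p = 0.986). Libraries numbered 1 were low and those numbered 2 high in both groups, for both genes. The ratio of Srebf1 to Srebf2 CPM was 0.420 and 0.414 in bulk and 0.450, 0.431 and 0.443 in GFP libraries.

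Scap had 160 and 178 CPM in bulk and 179, 185 and 159 CPM in GFP libraries (0.05 ± 0.19, edgeR adjusted p = 0.925). Insig1, itself an SREBP target, had 104 and 94.3 CPM in bulk and 69.9, 100 and 108 CPM in GFP libraries (-0.10 ± 0.23, edgeR adjusted p = 0.877). The groups overlapped for Scap and for Insig1. The direction of Srebf1, Srebf2, Scap and Insig1 turned under some scalings, trends or left-out libraries, so the signs printed here hold for the fit they come from. With the block and the plain trend, which raised the median of all genes, Srebf1, Srebf2 and Scap were called higher (0.40, 0.40 and 0.48; edgeR adjusted p = 0.0168, 0.0259 and 0.00424), and in no other fit. mRNA levels do not show how much SREBP is cut and active.

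Insig2, whose transcript is less dependent on SREBP than that of Insig1, had 102 and 78.5 CPM in bulk and 142, 137 and 70.4 CPM in GFP libraries. GFP 3 was the lowest of the 5 libraries and GFP 1 and 2 the highest. Without the block the change was 0.37 ± 0.32 (edgeR adjusted p = 0.636). With the block, which takes nothing from GFP 3, Insig2 rose by 0.64 ± 0.14 (edgeR adjusted p = 5.28e-05). The ratio of Insig2 to Insig1 CPM was 0.985 and 0.832 in bulk and 2.04, 1.38 and 0.650 in GFP libraries.

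**Figure D4:**
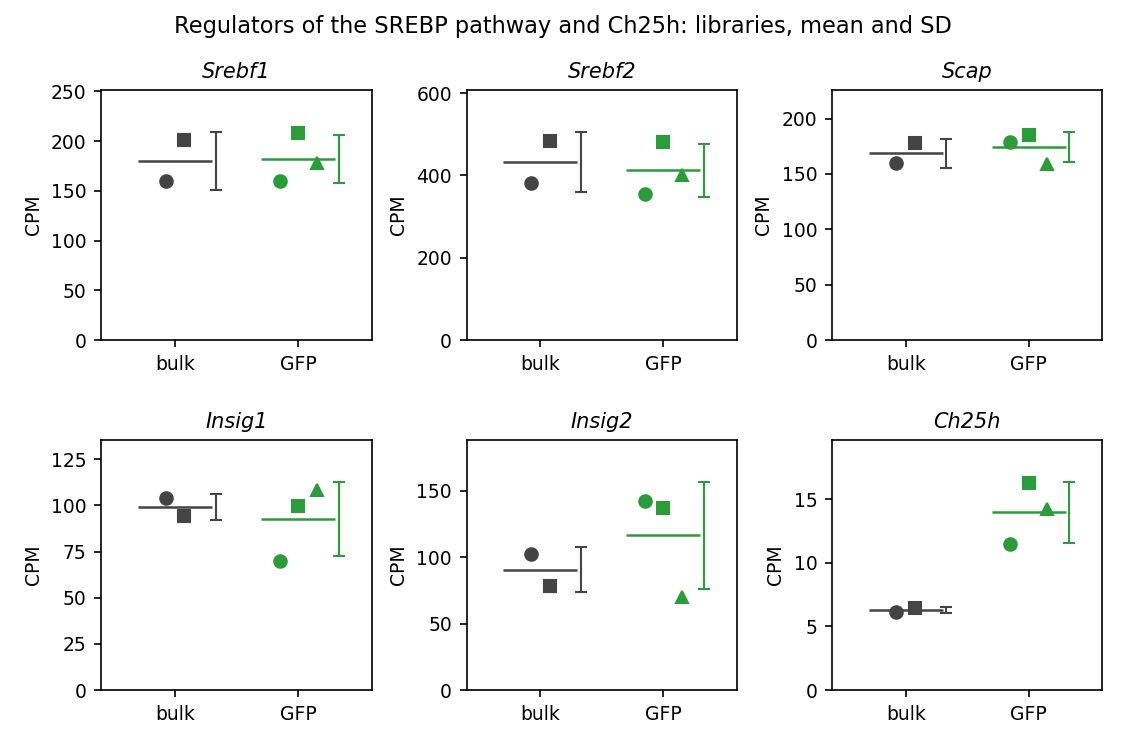
CPM of 5 SREBP control genes and Ch25h by library (circle, square and triangle for replicates 1, 2 and 3), with the mean as a line and the SD as a bar (n = 2 bulk, n = 3 GFP), axes from 0. The groups overlap for all control genes and not for Ch25h, where GFP libraries sit at 11.5 to 16.2 CPM and bulk near 6 CPM.

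Ch25h makes 25-hydroxycholesterol, an oxysterol that binds Insig proteins to hold SREBPs back and that activates liver X receptors (LXR). It had 6.14 and 6.42 CPM in bulk and 11.5, 16.2 and 14.2 CPM in GFP libraries, from 367 and 716 against 905, 1076 and 1328 counts. Every GFP library lay above both bulk libraries. Ch25h rose by 1.15 ± 0.24 on the log2 scale, 2.22-fold (edgeR adjusted p = 0.0313), and by 1.12 with the block (6.19e-10). It was not called without bulk 1, bulk 2 or GFP 2 (edgeR adjusted p = 0.201, 0.220 and 0.107), with library size scaling alone (0.0591) or with the centred trend removed (0.0612). With the plain trend removed it was called (1.25, edgeR adjusted p = 0.0288). The ratio of Ch25h to Hmgcs1 CPM was 0.0139 and 0.0118 in bulk and 0.0428, 0.0398 and 0.0333 in GFP libraries.

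Other genes that make, break, store or sense oxysterols were listed separately. Of 12, 11 were tested and Soat1 and Sult2b1 fell. Soat1, which esterifies cholesterol for storage, was at 18.6 and 17.9 CPM in bulk and 2.75, 2.10 and 1.96 CPM in GFP libraries (-3.01 ± 0.24, edgeR adjusted p = 4.62e-04). The cholesterol sulfotransferase gene Sult2b1, of differentiating keratinocytes, fell by 0.83 ± 0.18 (edgeR adjusted p = 0.0338). Gpr183, the receptor of an oxysterol made from the product of Ch25h and a gene of immune cells, was at 0.502 and 0.610 CPM in bulk and 0.151 to 0.161 CPM in GFP libraries (edgeR adjusted p = 0.0586). Among 10 genes of the LXR system, which include the receptor genes Nr1h2, Nr1h3, Rxra and Rxrb, Abcg4 fell by 1.28 ± 0.26 (edgeR adjusted p = 0.0270). None of the 10 was called higher in that fit, in which 7 had a log2 change above 0 and 3 below. No gene of that list was called without bulk 1, bulk 2, GFP 1 or GFP 2, fits that also called fewer of all genes. With the block 1 was lower and 3, Rxrb, Lpcat3 and Apoe, were higher, against 19.7 and 16.4 percent of all genes. With block and plain trend the counts were 1 and 5, against 11.4 and 36.1 percent of all genes. With block and centred trend they were 1 and 2, against 14.9 and 16 percent. Of the oxysterol list, 1 gene was called lower without bulk 1, bulk 2, GFP 1 or GFP 2, and 4 were lower and 2 higher with the block.

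Of 16 further genes of sterol uptake, traffic and SREBP processing none was called by edgeR without the block. Of these, 1 was lower at an unadjusted p under 0.05 and none higher, and the DESeq2 Wald test called 1 lower and limma-voom none. With the block 4 were lower and 3 higher, against 19.7 and 16.4 percent of all genes. With block and plain trend the counts were 0 and 11, against 11.4 and 36.1 percent of all genes. With block and centred trend they were 2 and 6, against 14.9 and 16 percent. Of 18 further fatty acid genes 17 were tested and Scd1, a desaturase gene like Scd2, fell by 1.17 ± 0.22 (edgeR adjusted p = 0.0212). No gene of this list was called without bulk 1, bulk 2 or GFP 1, fits that also called fewer of all genes. Scd1 stood at 383 and 375 CPM in bulk and 162, 205 and 140 CPM in GFP libraries. The glycerol lipid gene Gpam and Acacb, the mitochondrial counterpart of Acaca, had changes of -0.75 and -0.85 (edgeR adjusted p = 0.0872 and 0.102). With the block 6 of these fatty acid genes were called lower and 1 higher, against 19.7 and 16.4 percent of all genes.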

How the data were processed

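Per the labels, RNA of 3 GFP-sorted and 2 bulk keratinocyte libraries was sequenced. The deposited values are whole-number counts per Ensembl gene ID, not normalized by the authors. Per the submitters' processing notes, STAR and GRCm39 were used. Versions, counting tool, annotation and strandedness: not given in the sources used here. Hence overlapping genes cannot be separated. Symbols came from GENCODE M21 by gene ID without version (52073 of 56691 matched).

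Counts were tested with edgeR 4.0.16 (R 4.3.3): filterByExpr (minimum count 10, total 15), TMM scaling, a group term, the quasi-likelihood test, two-sided, 3 residual degrees of freedom, Benjamini-Hochberg adjustment over 18583 genes and a threshold of 0.05. SE is the log2 change over the root of F. CPM is TMM-adjusted. Alternatives were other scalings, DESeq2 1.42.0, limma-voom 3.58.1, other count filters, a replicate block, a loess trend on length and GC content as offset (span 0.3, M21 longest transcript, 18107 genes), and leaving out each library. The edgeR fit of the groups alone was also run on simulated counts, with spreads taken from these data. Only its median log2 changes were checked there, and the alternatives were not run on them.

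Title numbers were taken to name the source animal, which the labels do not state and which their genotypes (WT for bulk, Lrig1 positive for GFP) leave in doubt; all results with the block rest on it. Across genes, the difference of bulk 1 and 2 correlated with that of GFP 1 and 2 (Pearson r = 0.566; genes are not independent replicates). Replicates of a group differed beyond sampling noise (chi-square over its degrees of freedom, 147 to 443). All members are named; per-library values are given for called members, those called with the block, the most abundant of each arm, the control genes and a few others. The members and lists were chosen with earlier results of these data known. The plain trend was the version run first. The robust, centred trend was chosen after seeing the data, once the calls of the plain trend, including that of Ch25h, were known, because the plain trend shifted the median of all genes. Both are given. Counts carry no molecular identifiers.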

Additional observations from a re-analysis of the deposited data

How the results depend on the processing

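Scd2, Fads1, Fads2, Lss and Ch25h kept their direction in all alternatives run. Over the fits without one library, 0 to 6 members were called (0 to 5 lower, 0 to 1 higher), and 480 to 1205 of all genes. The medians ran from -0.50 to -0.25 in the cholesterol arm and -0.99 to -0.63 in the fatty acid arm, and Ch25h from 1.03 to 1.28. With the replicate block 23 members (21 lower, 2 higher) and 6692 genes were called. Library size alone gave 7 lower and 0 higher, with Ch25h at 1.03, and called 1059 of all 18583 tested genes lower and 10 higher. The DESeq2 Wald test called 9 members (8 lower) and 1498 of all genes, against 5 (4 lower) and 982 in the edgeR fit, each with 18583 genes tested. With no low count filter 32815 genes were tested, and 10 members (9 lower) and 1918 of all genes were called. The cause of these differences was not tested.

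The length and GC trend was run first as a plain loess, and the robust, centred form was chosen after seeing the data. The plain trend moved the medians to -0.23 (cholesterol arm) and -0.49 (fatty acid arm), and with the block to -0.18 and -0.39, while the median of all genes rose to 0.29 and 0.28. With the block it called 20 members (12 lower, 8 higher) and 8585 genes. The centred trend called 0 members higher, Ch25h being at 0.999, and with the block 23 (20 lower, 3 higher) and 5593 genes. Which form is closer to the truth was not tested.

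Signs turned for some members that were not called without the block. With library size alone Fdft1 was at -0.012, Sc5d at -0.094, Srebf1 at -0.11 and Scap at -0.077. Srebf1 was at -0.0015 with upper quartile scaling and -0.020 with a minimum of 1 CPM in 2 libraries, where Sc5d was at -0.0027. Msmo1 was at 0.033 with the block. With the plain trend removed Cyp51 was at 0.16, Lbr at 0.059, Msmo1 at 0.066, Srebf2 at 0.37 and Insig1 at 0.088, and with the block as well Cyp51 at 0.19, Lbr at 0.059, Msmo1 at 0.21 and Srebf2 at 0.40. Srebf2 was at 0.13 with the centred trend removed, and Srebf2 and Cyp51 at 0.17 and 0.0047 with the block as well. Without one library the ranges were -0.030 to 0.28 for Fdft1, -0.24 to 0.12 for Cyp51, -0.15 to 0.047 for Lbr, -0.39 to 0.070 for Msmo1, -0.12 to 0.16 for Sc5d, -0.14 to 0.17 for Srebf1, -0.23 to 0.10 for Srebf2, -0.023 to 0.12 for Scap and -0.23 to 0.070 for Insig1. Fits that leave 1 bulk library assume that it varies like the GFP libraries.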
